A study of Rattus norvegicus with 12 samples.

Results

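The MAP kinase phosphatases (MKPs) are dual-specificity phosphatases, encoded by the Dusp genes, and their 10 catalytically active members Dusp1, Dusp2, Dusp4, Dusp5, Dusp6, Dusp7, Dusp8, Dusp9, Dusp10 and Dusp16 were followed across every array of the study. A member was the array feature whose single gene symbol was that of the gene, and the brightest feature where there were several. All 10 of 10 had a feature, out of 18166 genes with a symbol, and all 10 passed the filter on low signal, which left 13636 genes to test.

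The arrays measured RNA of skin-derived precursors (SKPs), a dermal precursor cell type taken from newborn Sprague-Dawley rat pups and grown in suspension as spheres. Secondary spheres were dissociated and the cells were kept for 24 h with trimebutine maleate plus trametinib (100 nM of each, called the combination here), with 100 nM alprostadil, with 100 nM trimebutine maleate, or with vehicle. Trametinib blocks MEK, the kinase upstream of ERK, alprostadil is a synthetic prostaglandin E1, and trimebutine is given for disorders of gut motility. Each of the 4 groups had 3 arrays, 12 in all, 1 from each of 3 independent isolates. All groups grew in medium with the growth factors FGF2 and EGF, both of which signal through ERK. No group had trametinib alone, so its effect was measured in the presence of trimebutine. Values are log2 expression values per feature, differences are differences of group means on that scale (3 arrays a group), and limma gave the adjusted p-values, over the 13636 genes. The main fit did not pair the arrays by isolate, so it counts differences between isolates as spread. Results of a second fit, which pairs them with the replicate number as a block, are named as such.

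MAP kinases are switched on by phosphorylation of a threonine and a tyrosine in their activation loop, and MKPs switch them off by removing both phosphates. Many MKP genes are themselves induced by the kinases they oppose, which makes them negative feedback regulators. Dusp1, Dusp2, Dusp4 and Dusp5 encode inducible nuclear enzymes, Dusp6, Dusp7 and Dusp9 encode cytoplasmic enzymes that act mainly on ERK, and Dusp8, Dusp10 and Dusp16 encode enzymes that act mainly on JNK and p38. In cells grown with FGF, Dusp6 is a widely used transcriptional readout of ERK signalling.

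Array medians lay between 6.409 and 6.505, correlations between arrays within a group were 0.985 to 0.991, and no 2 arrays were identical. Of 12 dermal precursor markers, 11 had a feature and all 11 passed the filter, with a list mean of 10.29 to 10.52 over the 12 arrays. Twist1, Sox9 and Sox2 were the dimmest of them, with means of 6.20, 6.52 and 6.66.

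Adding trametinib split the family. Against trimebutine alone, 3 of the 10 members rose (Dusp8, Dusp16 and Dusp1), 3 fell (Dusp6, Dusp5 and Dusp4) and 4 did not pass the test (Dusp2, Dusp7, Dusp9 and Dusp10). Over all genes tested, 33.4% passed in this comparison, 16.8% higher and 16.6% lower. The combination and trimebutine arrays did not overlap for 6 of the 10 members, nor for 45.8% of all genes. A change of over 1 on the log2 scale that also passed was found for 4 members, against 4.80% of all genes. The same 6 members passed in the same directions against vehicle, where 35.0% of all genes passed. These comparisons share the combination arrays, so the second is not an independent repeat of the first.

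Marker genes moved in the same comparison with trimebutine. Of the 11 dermal precursor markers 3 rose (Twist2 by 0.83, Col1a1 by 0.56 and Prrx1 by 0.50) and 3 fell (Pdgfra by 0.79, Dlk1 by 0.58 and Twist1 by 0.29). Of the 15 macrophage and leukocyte markers, C1qa rose by 0.52 and Cd68 fell by 1.03. In the fit with the replicate block 4 of them rose and 3 fell. Their array means were 7.61 to 8.79 in the combination cultures and 7.62 to 9.07 with trimebutine. The part of the makeup of the cultures in the Dusp differences was not tested.

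**Figure D1:**
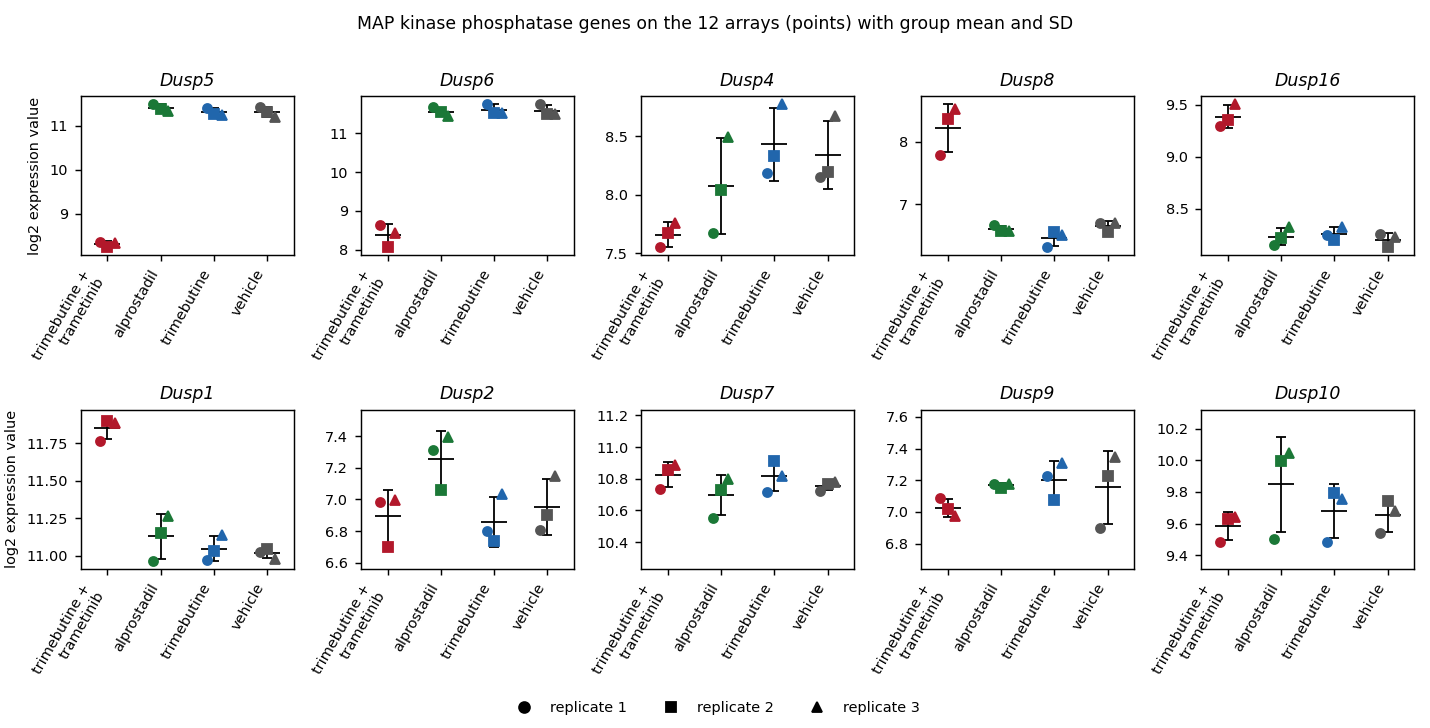
Log2 expression value (y axis, a separate scale for each gene) of the 10 MAP kinase phosphatase genes on each of the 12 arrays, by group (x axis); points are arrays, their shape is the replicate number, and bars are the group mean and SD (n = 3). The combination arrays lie below the trimebutine and vehicle arrays for Dusp5, Dusp6 and Dusp4 and above them for Dusp8, Dusp16 and Dusp1.

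Dusp5, a nuclear phosphatase specific for ERK, fell together with Dusp6, the main cytoplasmic ERK phosphatase. Dusp5 had log2 values of 8.36, 8.23 and 8.33 in the combination cultures, 11.51, 11.39 and 11.34 with alprostadil, 11.41, 11.28 and 11.24 with trimebutine, and 11.42, 11.30 and 11.20 with vehicle (replicates 1, 2 and 3 in each group). Dusp6 had 8.64, 8.06 and 8.44 in the combination cultures, 11.67, 11.54 and 11.45 with alprostadil, 11.77, 11.52 and 11.53 with trimebutine, and 11.77, 11.49 and 11.50 with vehicle. For both genes every combination array lay far below every other array, and the arrays of the other groups overlapped. Dusp5 differed by −3.00 from trimebutine alone (SE 0.08, 95% interval −3.17 to −2.84, adjusted p = 2.49e-09), which is 8.03-fold lower. Dusp6 differed by −3.23 (SE 0.14, 95% interval −3.53 to −2.92, adjusted p = 4.00e-08), which is 9.35-fold lower. Ordered by the size of the difference among the 13636 genes, Dusp6 stood at rank 10 and Dusp5 at rank 17. Against vehicle the differences were −3.00 for Dusp5 and −3.21 for Dusp6. In bulk samples, fewer cells of a type and less RNA per cell cannot be told apart.

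The 250 bases before the RefSeq start of Dusp5 are shown because they hold, side by side, a pair of CArG boxes, the motif bound by serum response factor, which works with ERK-activated partners at early response genes. The window lies at chr1:262543524-262543773 on the plus strand (GRCr8), and capitals mark the CArG boxes and TGACG, the core of the cyclic AMP response element (CRE).
Dusp5: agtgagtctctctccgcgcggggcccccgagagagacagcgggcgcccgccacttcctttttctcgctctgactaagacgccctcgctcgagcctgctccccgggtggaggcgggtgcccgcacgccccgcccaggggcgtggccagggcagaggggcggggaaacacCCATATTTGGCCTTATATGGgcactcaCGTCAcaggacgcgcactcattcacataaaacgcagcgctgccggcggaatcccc
The CArG boxes are at positions −82 to −73 and −72 to −63 from the start, and the CRE core, on the minus strand, is at −55 to −51. RefSeq promoter windows of 250 bases before to 50 after the start were given for 9 of the 10 members. Of 27457 such windows, 1.64% held a CArG box on either strand and 0.0255%, or 7 windows, held 2 or more. The Dusp6 window held no match to any of the 5 motifs searched, which were the CArG box, TGACGTCA (the full CRE), TGACG (the CRE core), CCGGAAG (an ETS motif) and TGANTCA (AP-1), on both strands. A match describes the letters of the window and shows no binding, and a window without a match says nothing about the factor.

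Dusp4, a nuclear phosphatase of ERK, JNK and p38 that is induced by ERK, had the smallest of the falls. Its log2 values were 7.55, 7.67 and 7.75 in the combination cultures, 7.67, 8.04 and 8.49 with alprostadil, 8.18, 8.33 and 8.78 with trimebutine, and 8.15, 8.19 and 8.67 with vehicle. The combination arrays lay below every trimebutine and vehicle array but overlapped the alprostadil arrays, and replicate 3 was the highest in every group. The difference from trimebutine was −0.77 (SE 0.21, 95% interval −1.23 to −0.31, adjusted p = 0.0145), a 1.71-fold lower level, and that from vehicle was −0.68 (adjusted p = 0.0263). The fall within each isolate was −0.64, −0.65 and −1.02. The call against trimebutine was lost without trimebutine replicate 3 (−0.60, adjusted p = 0.0573). That against vehicle was lost without vehicle replicate 3 (−0.51, adjusted p = 0.0975), without combination replicate 1 (−0.62, adjusted p = 0.0778) and without combination replicate 2 (−0.69, adjusted p = 0.0638). Those runs count differences between isolates as spread. With the replicate number as a block Dusp4 passed against trimebutine (adjusted p = 9.60e-05) and against vehicle (adjusted p = 0.000238), and also without any 1 of the isolates.

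Of the 3 genes for phosphatases that act mainly on JNK and p38, Dusp8 and Dusp16 rose when trametinib was added. Dusp8 had log2 values of 7.79, 8.36 and 8.52 in the combination cultures, 6.67, 6.58 and 6.58 with alprostadil, 6.31, 6.57 and 6.51 with trimebutine, and 6.70, 6.56 and 6.70 with vehicle. Dusp16 had 9.29, 9.35 and 9.51 in the combination cultures, 8.16, 8.22 and 8.32 with alprostadil, 8.25, 8.20 and 8.33 with trimebutine, and 8.26, 8.13 and 8.23 with vehicle. No combination array overlapped any other array for either gene, and the combination arrays of Dusp8 were more spread (SD 0.39) than those of Dusp16 (SD 0.11). Dusp8 was 1.76 higher than with trimebutine (SE 0.15, 95% interval 1.43 to 2.09, adjusted p = 4.94e-06), a 3.39-fold rise. Outside the combination the Dusp8 values lay near the array medians (6.409 to 6.505), so the size of this fold is uncertain at such low signal. Dusp16 was 1.12 higher (SE 0.07, 95% interval 0.96 to 1.28, adjusted p = 6.20e-07), a 2.17-fold rise. Against vehicle the rises were 1.57 and 1.18 for Dusp8 and Dusp16. The third of these genes, Dusp10, did not pass.

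Dusp1 encodes MKP-1, an immediate early nuclear phosphatase that acts on p38 and JNK and on ERK, and is induced by stress, glucocorticoids and cyclic AMP as well as by growth factors. Its log2 values were 11.77, 11.90 and 11.89 in the combination cultures, 10.97, 11.15 and 11.27 with alprostadil, 10.97, 11.03 and 11.14 with trimebutine, and 11.03, 11.05 and 10.98 with vehicle. All combination arrays lay above all others, while the other groups overlapped. Dusp1 was 0.80 higher than with trimebutine (SE 0.08, 95% interval 0.63 to 0.98, adjusted p = 1.46e-05), a 1.74-fold rise, and the rises within the isolates were 0.79, 0.87 and 0.75. Dusp1 thus changed in the opposite direction to Dusp4 and Dusp5, which encode nuclear inducible enzymes of the same subgroup.

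The windows before the RefSeq starts of Dusp1 (chr10:17184603-17184852, plus strand) and Dusp16 (chr4:169361509-169361758, minus strand), both GRCr8, are printed because they are the members that rose and held a match, with the CRE matches in capitals.
Dusp1: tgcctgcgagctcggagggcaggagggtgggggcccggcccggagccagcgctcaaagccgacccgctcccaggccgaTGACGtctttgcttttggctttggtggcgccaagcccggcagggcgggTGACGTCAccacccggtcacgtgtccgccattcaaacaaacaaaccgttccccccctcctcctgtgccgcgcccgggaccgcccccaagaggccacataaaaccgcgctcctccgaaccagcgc
Dusp16: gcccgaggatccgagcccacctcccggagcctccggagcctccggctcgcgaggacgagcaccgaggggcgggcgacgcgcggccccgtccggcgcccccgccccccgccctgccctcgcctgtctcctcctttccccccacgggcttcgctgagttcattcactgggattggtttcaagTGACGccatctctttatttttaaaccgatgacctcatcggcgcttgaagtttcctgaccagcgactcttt
Dusp1 holds the full CRE TGACGTCA at −124 to −117, within which CRE cores on both strands overlap, and a further core at −172 to −168. Dusp16 holds 1 CRE core at −70 to −66. A full CRE was in 1.91% of the 27457 windows and a CRE core in 22.0%. The Dusp2 window held a CRE core at −9 to −5 on the minus strand, and the windows of Dusp7, Dusp8, Dusp9 and Dusp10 held no match. An ETS motif was in 9.22% of all windows and an AP-1 motif in 7.33%, and in none of the 9 windows of the members.

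Dusp2, Dusp7, Dusp9 and Dusp10 did not pass against trimebutine, and their combination and trimebutine arrays overlapped. Dusp7, a cytoplasmic ERK phosphatase close in sequence to Dusp6, had log2 values of 10.74, 10.85 and 10.89 in the combination cultures, against 10.72, 10.91 and 10.82 with trimebutine. The 95% interval of its difference, −0.16 to 0.18, excludes a change of the size of that of Dusp6. Dusp9, the third cytoplasmic ERK phosphatase, had 7.09, 7.02 and 6.97 in the combination cultures, against 7.23, 7.07 and 7.31 with trimebutine (difference −0.18, interval −0.40 to 0.05, adjusted p = 0.212). Dusp10, a JNK and p38 phosphatase, had 9.48, 9.63 and 9.64 in the combination cultures, against 9.48, 9.80 and 9.76 with trimebutine (difference −0.09, interval −0.39 to 0.20, adjusted p = 0.642). Dusp2, a nuclear phosphatase known best from activated immune cells, had 6.98, 6.70 and 7.00 in the combination cultures, against 6.80, 6.74 and 7.03 with trimebutine (difference 0.04, interval −0.24 to 0.31, adjusted p = 0.854). Dusp2 and Dusp9 averaged 6.99 and 7.14 over the 12 arrays, not far above the array medians (6.409 to 6.505). At such low signal a fall could have been missed. In none of the 3 subgroups did every gene pass. The nuclear inducible genes held 1 rise and 2 falls, the cytoplasmic ERK phosphatases 1 fall, and the JNK and p38 phosphatases 2 rises.

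**Figure D2:**
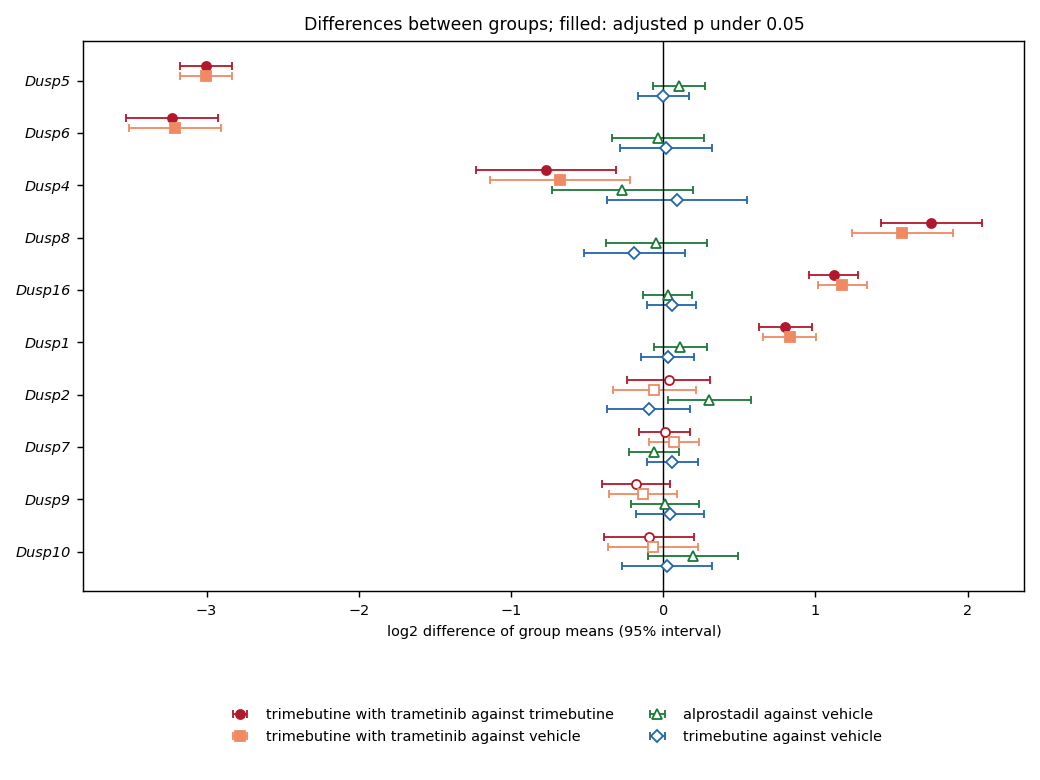
Difference of group means on the log2 scale (x axis) with its 95% interval for each of the 10 genes (y axis) in 4 comparisons; filled symbols passed at an adjusted p under 0.05. The differences of the combination run from −3.23 for Dusp6 to 1.76 for Dusp8, while those of alprostadil and of trimebutine against vehicle lie between −0.27 and 0.30 and none passed.

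The comparison of alprostadil with vehicle measured the family after 24 h with a prostaglandin that raises cyclic AMP in many cells. Changes that came and went before 24 h were not measured. None of the 10 members passed, against 0.389% of all genes tested, and none passed with the replicate number as a block. Without the block 1 member (Dusp2) had an unadjusted p under 0.05, against 6.97% of all genes. Dusp2 had 7.31, 7.06 and 7.39 with alprostadil, against 6.81, 6.90 and 7.15 with vehicle. Each alprostadil array was above the vehicle array of its isolate, but the groups overlapped, and the difference of 0.30 (SE 0.12, 95% interval 0.03 to 0.58) had an adjusted p of 0.639. In the limma fit with the replicate block the interval of Dusp2 was 0.14 to 0.47 (unadjusted p = 0.00216, adjusted p = 0.0800). The markers of macrophages and leukocytes, cell types that express Dusp2 when activated, had array means of 7.50 to 9.21 with alprostadil and 7.71 to 9.01 with vehicle. None of their 15 members passed in this comparison, and their part in the Dusp2 values was not tested.

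Dusp1 had the full CRE in its window and, at 24 h, an alprostadil difference of 0.11 (95% interval −0.06 to 0.29, adjusted p = 0.849). Dusp5 differed by 0.10 (interval −0.06 to 0.27), Dusp6 by −0.03 (interval −0.33 to 0.27), Dusp16 by 0.03 (interval −0.13 to 0.19) and Dusp8 by −0.05 (interval −0.38 to 0.29). The intervals of Dusp4 (−0.73 to 0.19) and Dusp10 (−0.10 to 0.49) were wider. They count differences between isolates as spread, and leave room for changes that 3 arrays could not show. With the replicate number as a block they were −0.49 to −0.05 for Dusp4 and 0.02 to 0.37 for Dusp10. In that limma fit the unadjusted p was 0.0206 for Dusp4 and 0.0287 for Dusp10, and neither passed (adjusted p = 0.255 and 0.297). In the same arrays 6 of 11 cyclic AMP and CREB targets rose with alprostadil and none fell, with a list median of 0.60, and 8 rose with the replicate number as a block. Among those that rose in both fits were the nuclear receptor gene Nr4a1 (2.46) and the phosphodiesterase genes Pde4b (1.24) and Pde4d (0.84). Of the 15 other feedback and output genes of ERK, 2 rose with alprostadil (Phlda1 by 1.09 and Ier3 by 0.59) and none fell.

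Trimebutine alone was set against vehicle to measure the drug without the MEK inhibitor. No member passed, as was true of all 13636 genes (0%), and with unadjusted p under 0.05 there were 0 members and 1.05% of all genes. The differences ran from −0.19 for Dusp8 (95% interval −0.52 to 0.14) to 0.09 for Dusp4 (interval −0.37 to 0.55). For the ERK phosphatases Dusp5 and Dusp6 they were 0.0012 (interval −0.17 to 0.17) and 0.02 (interval −0.28 to 0.32). Intervals of this width exclude a trimebutine effect on Dusp5 or Dusp6 of the size seen with the combination, but not smaller ones.

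Alprostadil and trimebutine, given at the same dose for the same time, were also set against each other. No member passed, against 0.381% of all genes, and the groups did not overlap for 2 members, Dusp2 and Dusp8, against 12.6% of all genes. Dusp2, with the alprostadil values given above against 6.80, 6.74 and 7.03 with trimebutine, was 0.40 higher with alprostadil (SE 0.12, 95% interval 0.13 to 0.67, adjusted p = 0.371), or 1.32-fold. With the replicate number as a block Dusp2 passed (adjusted p = 0.0205), the only member to do so, and 2.51% of all genes passed in that fit. The macrophage and leukocyte markers had array means of 7.50 to 9.21 with alprostadil and 7.62 to 9.07 with trimebutine. None of the 15 passed in this comparison.

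Set against alprostadil, the combination gave 3 members higher and 3 lower, where 37.9% of all genes passed. Dusp5 (−3.11), Dusp6 (−3.18), Dusp8 (1.62), Dusp16 (1.15) and Dusp1 (0.72) passed as they did against trimebutine and vehicle, whose combination arrays are the same. Dusp2 was lower than with alprostadil (−0.36, 95% interval −0.63 to −0.09, adjusted p = 0.0392). That call was lost in 5 of 16 alternative settings, which were no filter on low values (adjusted p = 0.0555), arrays centred on their median (0.0674), and the runs without combination replicate 2 (0.156), alprostadil replicate 1 (0.104) and alprostadil replicate 3 (0.133). Dusp4 (−0.41, adjusted p = 0.149) and Dusp10 (−0.27, adjusted p = 0.147) did not pass, but did with the replicate number as a block (adjusted p = 0.00569 for Dusp4 and 0.0159 for Dusp10) and without alprostadil replicate 1 (adjusted p = 0.0435 for Dusp4 and 0.00782 for Dusp10). An F test over the 4 groups called 6 of the 10 members, those that passed against trimebutine, and 32.5% of all genes. With the replicate block it called Dusp2 as well (adjusted p = 0.00436, against 0.0831 without the block), and 42.7% of all genes.

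The isolates differed for some members as well. In the model with both group and replicate number, the replicate number was called for 4 of 10 members, Dusp4 (adjusted p = 0.00469), Dusp10 (adjusted p = 0.0206), Dusp2 (adjusted p = 0.0299) and Dusp6 (adjusted p = 0.0356), against 14.4% of all genes. This test was added after the data were seen. The replicate number was also called for 8 of the 15 other feedback and output genes of ERK. It was called for 3 of 11 cyclic AMP and CREB targets, 1 of 9 MAP kinase kinase and RAF genes and 0 of 8 MAP kinase genes. Over the 4 groups Dusp4 averaged 7.89, 8.06 and 8.42 in replicates 1, 2 and 3, and Dusp10 averaged 9.50, 9.79 and 9.78. Dusp2 averaged 6.97, 6.85 and 7.14, and Dusp6 averaged 10.96, 10.65 and 10.73. Replicate 3 was thus highest for Dusp4 and Dusp2, and replicate 1 was lowest for Dusp10 and highest for Dusp6. The Dusp4 call held in all 18 alternative settings, and that of Dusp10 was lost only without trimebutine replicate 1 (adjusted p = 0.0692). The calls of Dusp2 and Dusp6 were lost in more settings, such as no filter on low values (adjusted p = 0.0617 for Dusp2 and 0.0727 for Dusp6).

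The macrophage and leukocyte markers differed between the same isolates: the replicate number was called for 14 of the 15 genes. Their list mean was 7.50 to 7.71 in replicate 1, 8.28 to 8.49 in replicate 2 and 8.79 to 9.21 in replicate 3, over the 4 groups. Dusp4 had the same order of isolates as these markers in every group, and Dusp2 and Dusp10 did not. The list mean of the 3 measured Schwann markers had that order in every group as well. It was 6.75 to 6.94 in replicate 1, 6.93 to 7.23 in replicate 2 and 7.06 to 7.26 in replicate 3. Of the 3, only S100b differed between replicate numbers, with values of 6.56 to 8.15 over the arrays. Those of Sox10 (6.98 to 7.25) and Erbb3 (6.47 to 6.75) covered narrower ranges. Of 3 tested melanocyte markers 1, Mitf, differed between replicate numbers, and of the 11 dermal precursor markers 2 did, Nes and Sox2. Mitf averaged 10.89 over the arrays, but the other melanocyte markers were low. Pmel averaged 6.52 and Dct 5.92, and Mlana (5.35) and Tyr (3.73) did not pass the filter. The part of any of these cell types in the isolate differences was not tested. Keratinocyte and endothelial markers were low, with list means of 6.03 to 6.28 and 5.73 to 6.11 over the arrays.

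**Figure D3:**
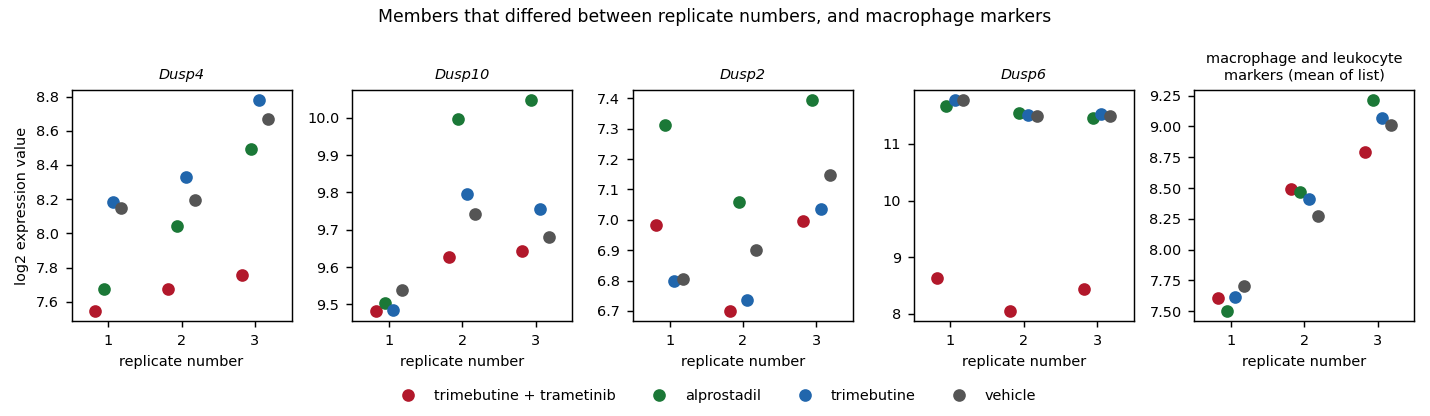
Log2 expression value (y axis, a separate scale for each panel) by replicate number (x axis) for the 4 members that differed between replicate numbers and for the mean of the 15 macrophage and leukocyte markers; each point is an array, coloured by group. Replicate 3 is highest and replicate 1 lowest in every group for Dusp4 and for the marker mean, while Dusp10 is lowest in replicate 1 of every group.

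The genes around the family were read from lists of the pathway. Among 15 other feedback and output genes of ERK, 11 fell with the combination against trimebutine, 1 rose and 3 did not pass, with a list median of −0.71, beside 0.03 over all genes tested. Spry4, which encodes a Sprouty inhibitor of receptor tyrosine kinase signalling, fell by 2.01 (adjusted p = 7.05e-08), and Fosl1, which encodes the AP-1 subunit FRA-1, fell by 1.71 (adjusted p = 2.18e-07). Ccnd1, the gene of cyclin D1, fell by 2.21 (adjusted p = 4.88e-06), and Spry2 was the gene that rose (0.58). The median of the 10 MAP kinase phosphatase genes was −0.04, since as many rose as fell, and their median absolute difference was 0.79, beside 0.16 over all genes. All 6 mitosis markers fell as well, with array means of 6.80 to 7.09 in the combination cultures, against 9.28 to 9.66 with trimebutine. The part of dividing cells in the Dusp differences was not tested.

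With the combination against trimebutine, differences of the kinase genes of the pathway lay between −0.46 and 0.46. Of 8 measured MAP kinase genes 2 rose, Mapk7 (0.28, adjusted p = 0.0102), which encodes ERK5, and Mapk12 (0.36, adjusted p = 0.0130), which encodes a p38 kinase. Mapk9, which encodes JNK2, fell by 0.37 (adjusted p = 0.00317), and 5 did not pass, so that 3 of 8 passed where 33.4% of all genes did. With the replicate number as a block Mapk8 (0.22, adjusted p = 0.0340) and Mapk13 (−0.44, adjusted p = 0.0333) passed as well. Of 9 measured MAP kinase kinase and RAF genes 2 rose and 4 fell, among them Braf (0.46, adjusted p = 7.74e-05), Map2k3 (−0.46, adjusted p = 0.000255) and the MEK1 gene Map2k1 (−0.24, adjusted p = 0.00537). With alprostadil 1 of the 8 MAP kinase genes rose, the JNK3 gene Mapk10 (1.02, adjusted p = 0.00308), and none of the 9 kinases above them passed.

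With the combination against trimebutine, the differences of other phosphatase genes lay between −0.66 and 0.57. Of 9 tested atypical dual-specificity phosphatases, which lack the kinase-binding domain of the MKPs, 2 rose with the combination (Dusp3 by 0.57, adjusted p = 7.15e-05, and Dusp11 by 0.20, adjusted p = 0.0150). Dusp22 fell by 0.52 (adjusted p = 0.00232), 6 did not pass, and the list median was 0.09. The 3 of 9 that passed are near the 33.4% of all genes. Of 4 tested phosphatases of other families that act on MAP kinases, Ppm1d, which encodes WIP1, fell by 0.35 (adjusted p = 0.00456) and Ptpn7 fell by 0.66 (adjusted p = 0.00569), and the other two did not pass. Among 11 cyclic AMP and CREB targets, 5 rose with the combination, 1 fell (2 with the replicate block) and 5 did not pass, with a list median of 0.17. Nr4a3 (2.42, adjusted p = 2.75e-06), Nr4a1 (1.76, adjusted p = 4.50e-05) and Crem (0.52, adjusted p = 0.000232) were among those that rose. With trimebutine alone against vehicle none of the 13636 genes tested passed (0%), so no gene of these or the other pathway lists did.

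**Figure D4:**
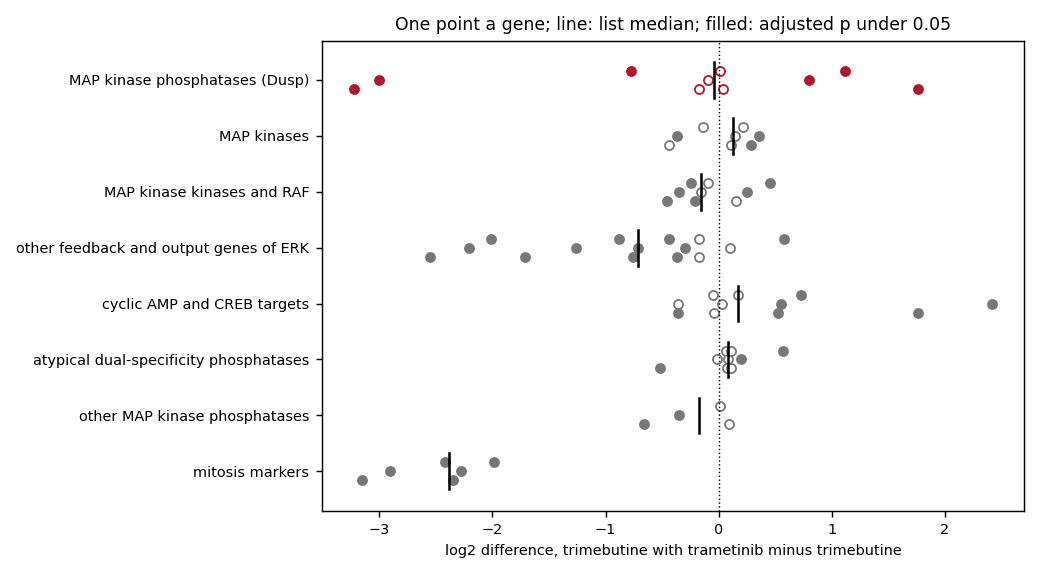
Log2 difference of the combination minus trimebutine (x axis) for each tested gene of the family and of 7 pathway lists (y axis); each point is a gene, filled where the adjusted p was under 0.05, and the line is the list median. The Dusp genes spread to both sides of 0, the other ERK output genes lie mostly below it (median −0.71), and all 6 mitosis markers lie below it.

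For each member called by the F test, the genes with the most similar values over the 12 arrays were found by Pearson correlation, as a description. Dusp5 and Dusp6 were close to each other (r = 0.996), and each was close to Tyms, which encodes thymidylate synthase (r = 0.997 for both). Suclg2, which encodes a subunit of a mitochondrial enzyme of the citric acid cycle, was closest to Dusp6 (r = 0.998). Dusp16 was closest to Loxl2, which encodes a lysyl oxidase of the extracellular matrix (r = 0.995), and Dusp8 to the Eph receptor gene Ephb2 (r = 0.987). Dusp1 was closest to Maco1 (r = 0.990), followed by the AP-1 subunit gene Jund (r = 0.990) and the small GTPase gene Rhob (r = 0.989). Dusp4 was closest to Olfml3 (r = 0.978) and Meox1 (r = 0.957). These correlations are over arrays that share groups and isolates, and for members other than Dusp4 the combination arrays stood far from all others, so a high r mostly describes that step.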

How the data were processed

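RNA of 12 SKP cultures was hybridised to Affymetrix Rat Gene 2.0 ST arrays. The authors deposited log2 expression values, 1 per array feature. Per the submitters' processing notes these come from the package oligo with RMA, which corrects background, normalizes and summarises probes. The sources used here give no version, setting or annotation build. Because RMA equalises the arrays, total RNA per cell cannot be read from them.

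Of 36685 features, 18511 had 1 symbol in the platform annotation, 575 several and 17599 none. The GRCr8 gene table gave 18394 of these single symbols, changed or not, and 117 were kept from the annotation. Of features sharing a symbol (636) the brightest stood for the gene, giving 18166 genes. Those with a mean below 5.83, the 25th percentile, were dropped, and 13636 were tested. Promoter windows are from RefSeq (GRCr8).

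A limma model (limma 3.58.1, R 4.3.3) with a mean per group was fitted to all 12 arrays, with 8 residual degrees of freedom and a median SE of 0.0867. Tests were two-sided with eBayes, and calls needed an adjusted p (Benjamini-Hochberg over all genes) under 0.05. The script was tested on simulated data. Groups came from the sample titles. Arrays of the same replicate number deviated together from their group means (18 pairs, r from 0.21 to 0.81; 36 pairs of different numbers, r from −0.71 to 0.10), and the design names 3 isolates, so the numbers pair the samples. A fit with that number as a replicate block was run beside it (6 degrees of freedom, median SE 0.0722). Without the block, the spread tested includes differences between these isolates. With the block, it is the spread left between cultures after isolate differences are taken out.

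The members and gene lists were chosen with earlier results of these data known. Named genes were all members, up to 3 genes per list and comparison with the smallest p, and the 3 genes most similar to each member called by the F test. Exceptions, picked with their values in view, were genes that complete a small count (Spry2, Mapk8, Mapk13 and markers) and the dimmest dermal precursor markers. Schwann and melanocyte markers whose levels are given were exceptions as well. Other filters, scalings and summaries of a gene, an intensity trend, fits on fewer groups and runs without each array were alternatives.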

Additional observations from a re-analysis of the deposited data

How the results depend on the processing

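Of 1008 recomputed member differences, 942 kept their direction and their side of the threshold, 9 lost a call and 10 gained one. The other 47 changed sign, all in runs without an array or an isolate, and all not past the threshold before or after. Dusp1, Dusp5, Dusp6, Dusp8 and Dusp16 passed for the combination against trimebutine and against vehicle in every alternative run; Dusp8 and Dusp2 fall out of the filter at the 50th percentile. Without single arrays or isolates, 5 to 6 members passed against trimebutine, 5 to 7 against vehicle and 5 to 8 against alprostadil, and the F test called 5 to 8. Dusp9 passed against vehicle without vehicle replicate 1 (−0.26, adjusted p = 0.0326) and without replicate 1 with the block (−0.29, adjusted p = 0.0296). With the replicate block 1 member (Dusp2) passed between alprostadil and trimebutine, and the block changed no other member's call than those given in the report. The replicate number was called for 2 members with no filter on low values, for 6 with the intensity trend, and for 2 to 5 without single arrays. Against vehicle, alprostadil and trimebutine each gave 0 members in every setting run, which came to 17 each.

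For the combination against trimebutine the ranges without single arrays that crossed 0 were Dusp2 −0.023 to 0.13 and Dusp7 −0.038 to 0.058; with the block and 1 isolate left out the sign also changed for Dusp2 −0.037 (replicate 1) and Dusp7 −0.019 (replicate 3). Against vehicle the ranges without single arrays that crossed 0 were Dusp2 −0.13 to 0.040; with the block and 1 isolate left out the sign also changed for Dusp2 0.013 (replicate 2). For alprostadil against vehicle the ranges without single arrays that crossed 0 were Dusp6 −0.090 to 0.059, Dusp7 −0.11 to 0.0094, Dusp9 −0.12 to 0.11 and Dusp16 −0.016 to 0.067; with the block and 1 isolate left out the sign also changed for Dusp6 0.00042 (replicate 1), Dusp9 −0.12 (replicate 1), Dusp16 −0.0027 (replicate 2) and Dusp16 −0.0042 (replicate 3). For trimebutine against vehicle the ranges without single arrays that crossed 0 were Dusp1 −0.016 to 0.066, Dusp2 −0.19 to 0.0022, Dusp4 −0.082 to 0.26, Dusp5 −0.053 to 0.058, Dusp6 −0.064 to 0.11, Dusp9 −0.082 to 0.14 and Dusp10 −0.034 to 0.12; with the block and 1 isolate left out the sign also changed for Dusp1 −0.036 (replicate 3), Dusp5 −0.018 (replicate 3), Dusp9 −0.095 (replicate 1) and Dusp10 −0.00063 (replicate 3). Between alprostadil and trimebutine the ranges without single arrays that crossed 0 were Dusp6 −0.11 to 0.032, Dusp9 −0.10 to 0.018 and Dusp16 −0.072 to 0.011; with the block and 1 isolate left out the sign also changed for Dusp9 0.013 (replicate 3) and Dusp16 0.0054 (replicate 1).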
